A study of Mus musculus with 4 samples.

Results

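The genes of the core pluripotency factors Pou5f1 (also called Oct4), Nanog, Sox2 and Klf4 were examined as 4 genomic windows in a map of Flag-Sp5 peaks from differentiating mouse embryonic stem cells. Each window was given with the gene's name as an interval of 104 to 110 kb on the mouse build mm9, and a peak belonged to a window when its midpoint lay inside. This took 8 of the 9428 listed peaks, of which 4 fell in the Pou5f1 window, 3 in the Nanog window, 1 in the Sox2 window and 0 in the Klf4 window. All 4 windows were on the chromosome that carries the named gene in the RefSeq gene table. Where in its window each gene lies on mm9 was not checked, so distances from a window's centre are not distances from a gene or its start.

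The study had 2 ChIP-seq (chromatin immunoprecipitation and sequencing) libraries made with the M2 antibody against the Flag tag and 2 input libraries made without antibody. All came from A2Lox.cre embryonic stem cells, a line that carries a chosen cDNA under doxycycline control. The cells were grown as embryoid bodies, which are floating aggregates that begin to differentiate, with doxycycline from day 2 for 24 h to switch on Flag-Sp5, and were collected on day 3. Doxycycline is named for the inputs too, and cells without Flag-Sp5 or without doxycycline were not analysed here, so antibody background and Flag-Sp5 binding cannot be told apart. The single peak list does not separate the libraries, so no value below has a replicate error. It also has no score or read count, so the depth is unknown and a window without a peak is not a measurement of zero binding.

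Sp5 belongs to the SP/KLF family of zinc-finger proteins, transcription factors that bind GC-rich DNA such as GC boxes and CACCC boxes, and its gene is a known target of Wnt/β-catenin signalling. Pou5f1 (a POU-domain protein), Sox2 (an HMG-box protein that binds DNA together with it) and Nanog (a homeodomain protein) are transcription factors that hold embryonic stem cells in the undifferentiated state and bind each other's regulatory DNA. Klf4, a Krüppel-like factor with zinc fingers related to those of Sp5, belongs to the same network. The network is taken down as embryonic stem cells leave pluripotency, and its genes do not all change alike.

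The promoters of the 4 genes were searched for the letters that SP/KLF factors are known for. The RefSeq sequence of the 250 bases before the start of each gene (GRCm38.p6; for Pou5f1 and Nanog the more upstream of 2 listed starts) is shown 5′ to 3′ on the gene's own strand, so that the loci with and without peaks can be compared. Capitals mark every match, on either strand, to GGGCGG (the GC box), CCACCC (the letters of the CACCC box) or GGGNGNGGG (a looser GC-rich form that can overlap both). The promoters were not placed on mm9, so whether a peak covers them was not analysed here.
Pou5f1: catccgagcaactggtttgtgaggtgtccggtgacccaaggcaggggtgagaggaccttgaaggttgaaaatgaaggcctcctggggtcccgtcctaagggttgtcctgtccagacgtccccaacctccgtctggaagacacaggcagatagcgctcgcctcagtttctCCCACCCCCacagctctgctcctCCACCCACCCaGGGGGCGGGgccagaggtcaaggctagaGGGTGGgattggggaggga
Nanog: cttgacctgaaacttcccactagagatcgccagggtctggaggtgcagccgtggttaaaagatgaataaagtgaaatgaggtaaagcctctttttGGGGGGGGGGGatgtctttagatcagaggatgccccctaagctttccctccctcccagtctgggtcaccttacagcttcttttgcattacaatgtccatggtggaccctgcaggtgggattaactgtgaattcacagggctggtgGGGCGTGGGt
Sox2: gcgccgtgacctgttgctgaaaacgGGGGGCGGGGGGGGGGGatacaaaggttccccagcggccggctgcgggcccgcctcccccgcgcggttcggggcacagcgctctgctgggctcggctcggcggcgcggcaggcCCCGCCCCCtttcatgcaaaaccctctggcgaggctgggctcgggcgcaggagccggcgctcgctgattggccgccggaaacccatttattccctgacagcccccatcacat
Klf4: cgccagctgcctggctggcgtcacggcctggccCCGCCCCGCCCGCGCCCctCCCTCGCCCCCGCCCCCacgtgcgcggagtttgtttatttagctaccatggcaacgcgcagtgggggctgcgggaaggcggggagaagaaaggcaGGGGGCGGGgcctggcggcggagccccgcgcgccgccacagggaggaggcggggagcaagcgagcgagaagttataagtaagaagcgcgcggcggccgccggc

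The Pou5f1 promoter held 1 GGGCGG and 4 CCACCC matches, most of them between 80 and 40 bases before the start. Klf4 had the most GGGCGG matches, 4, of which 3 lay from 217 to 184 bases before the start and the other from 101 to 96. Sox2 had 2 GGGCGG matches and Nanog had neither GGGCGG nor CCACCC. GGGNGNGGG occurred in all 4 promoters, with 2 matches in Pou5f1, 4 in Nanog, 6 in Sox2 and 5 in Klf4. In Nanog, 3 of these overlap in 1 run of G, and the other ends 2 bases before the start. Matches also overlap in Sox2, from 225 to 209 bases before the start, and in Klf4, from 198 to 182. Some GGGCGG matches of Klf4 and CCACCC matches of Pou5f1 share bases too, so the counts are not numbers of separate sites. Of 32851 promoters of the same length in the table, 32.7% held GGGCGG, 28.1% held CCACCC and 25.6% held GGGNGNGGG. These promoters cover all listed starts of 27025 genes, whereas each of the 4 genes is shown with a single start. CTTTGA, a form of the site of TCF/LEF factors, through which Wnt signalling acts, was in 13.8% of promoters and in 0 of these 4. The order of the 4 promoters by GGGCGG matches was also their order by G and C content, with 74% in Klf4, 72% in Sox2, 62% in Pou5f1 and 52% in Nanog, against a median of 52.4% over all promoters. The other motifs did not follow that order. The part of base composition in the GGGCGG matches was not tested. Klf4, with the most GGGCGG matches of the 4, was the gene whose window had no peak. These letters describe the promoters only and do not show where Flag-Sp5 binds.

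The peaks in the windows were unevenly divided (map of peaks around the 4 windows). The Pou5f1 window had 3.77 peaks per 100 kb against 0.476 over chromosome 17, and the Nanog window had 2.73 against 0.324 over chromosome 6. In the Sox2 window the value was 0.962 per 100 kb, from 1 peak, against 0.279 over chromosome 3. The Klf4 window had none, where the density of chromosome 4 would give 0.468 peaks. As counts, the exact 95% Poisson intervals were 1.09 to 10.2 for Pou5f1, 0.619 to 8.77 for Nanog, 0.0253 to 5.57 for Sox2 and 0 to 3.69 for Klf4. These intervals cover counting error of peaks only. All 4 overlap, so the counts do not separate the loci from each other. Over the 4 windows together, 8 peaks (interval 3.45 to 15.8) stood against 1.62 at the densities of their chromosomes, a ratio of 4.94. The interval treats peaks as independent, but 3 of the 8 lie within 2180 bp at Pou5f1. The genes were also chosen with earlier results of these data known, so the ratio only describes these windows.

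**Figure D1:**
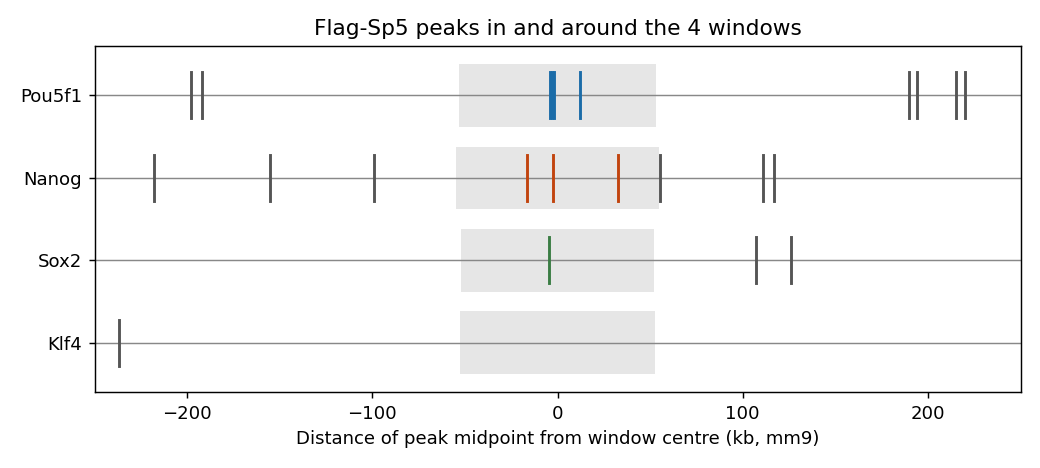
Positions of Flag-Sp5 peaks within 250 kb of the centre of each window on mm9, in kb from the centre, with 1 line per gene. Grey boxes are the windows, coloured bars the 8 peaks inside them (the 3 leftmost Pou5f1 bars merge at this scale) and dark bars the peaks outside; the Klf4 window is empty.

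Windows of the same size, placed without regard to genes, give the background for these counts. Windows around other genes were not counted. Windows of each locus's length were laid end to end from the first to the last peak of every chromosome, and those with at least as many peaks as the locus (for Klf4, with no peak) were counted. At least 4 peaks were found in 2.21% of 859 windows on chromosome 17 and in 1.01% of 24179 windows on all chromosomes. The Pou5f1 count thus lay in the upper tail, but this rests on counting 3 close peaks apart. With all listed peaks less than 1 kb apart merged, a setting chosen after seeing the data, the window held 2, and 7.26% of windows on all chromosomes held at least as many. At least 3 peaks, as in the Nanog window, were found in 1.73% of 1330 windows on chromosome 6 and in 3.01% of 23298 windows on all chromosomes. A single peak, as in the Sox2 window, was common, with 22.1% of windows on chromosome 3 and 26.3% on all chromosomes holding at least 1. An empty window, as at Klf4, was the usual case, with 69.9% on chromosome 4 and 73.6% on all chromosomes. The Sox2 and Klf4 counts are therefore near the background.

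The background itself depended on the chromosome. Windows with at least 4 peaks made up from 0.112% on chromosome 16 to 2.28% on chromosome 5 among the 19 autosomes, and chromosome 17 ranked 2 from the top. For the Nanog length and at least 3 peaks, the share ran from 0.645% on chromosome 18 to 6.31% on chromosome 11, and chromosome 6 ranked 16. So Pou5f1 lies on an autosome where windows of 4 peaks were comparatively frequent, and Nanog on one where windows of 3 peaks were comparatively rare. Chromosome 3 (Sox2) ranked 18 of 19 for windows with a peak, and chromosome 4 (Klf4) ranked 15 of 19 for windows without one. On X, no window had 4 peaks and 91% of windows of the Klf4 length were empty.

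**Figure D2:**
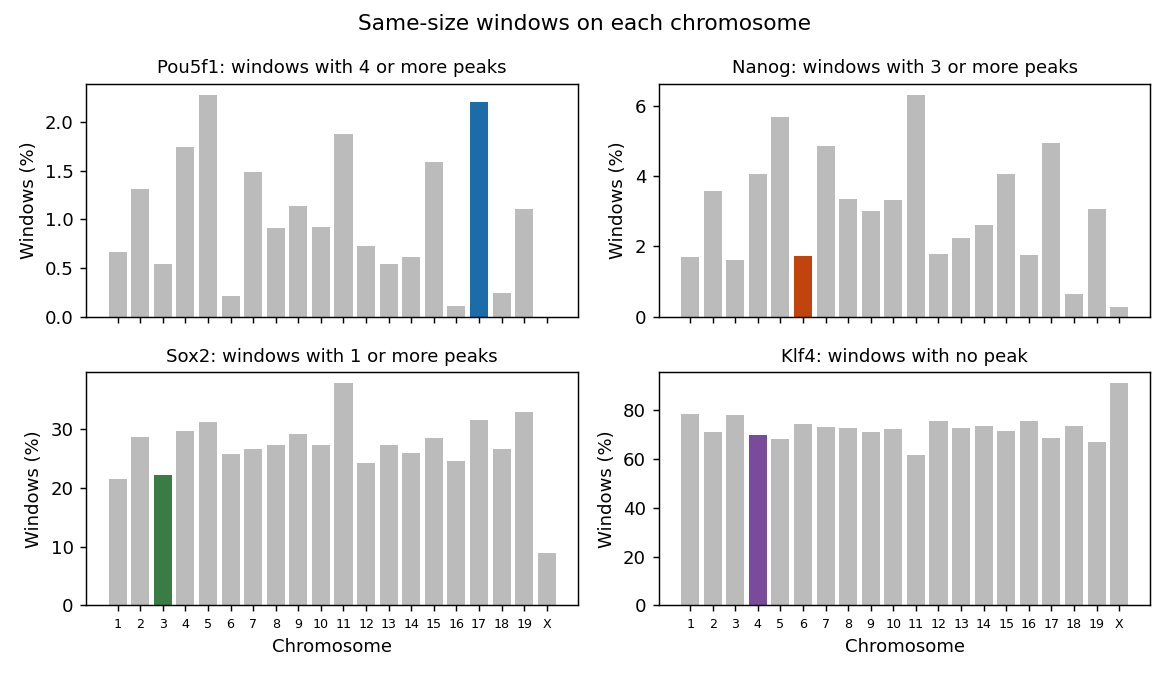
Percent of same-size windows on each chromosome with at least as many peaks as the locus (4 for Pou5f1, 3 for Nanog, 1 for Sox2) or with no peak (Klf4); the coloured bar is the chromosome of the gene, and each panel has its own linear axis from 0. Chromosome 17 is 1 of the 2 highest bars for Pou5f1, and chromosome 6 is among the low bars for Nanog.

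Pou5f1 was the locus with the tightest group of peaks. Its first 3 peaks were chr17:35640855-35641133 (279 bp), chr17:35641818-35642333 (516 bp) and chr17:35642841-35643034 (194 bp). They lay 4.01, 2.92 and 2.06 kb below the centre of the window, at lower coordinates. Neighbouring midpoints were 1.08 and 0.862 kb apart, and 684 and 507 bp separated the facing edges. The group extended over 2180 bp, of which the peaks covered 989 bp (45.4%). As background, Pou5f1 is known for a distal and a proximal enhancer upstream of its promoter, the first active in naive embryonic stem cells and the second in the epiblast. Whether the peaks lie on these elements was not analysed here, since no mm9 annotation was used.

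A group this tight was rare in the list. The midpoints of the outer peaks were 1.94 kb apart, and of 9388 runs of 3 neighbouring peaks 28 (0.298%) were as close together, on 13 chromosomes and 3 of them on chromosome 17. These runs held 76 peaks, 0.806% of the list. This count was made after the Pou5f1 group had been seen, so it describes the group and supports nothing further. The median distance between neighbouring peaks on chromosome 17 was 85.8 kb. The fourth Pou5f1 peak, chr17:35657128-35657352 (225 bp), stood 14.3 kb from the group and 12.2 kb above the centre. In the RefSeq gene order the coding genes beyond Pou5f1 on that side are Tcf19, a growth-regulated nuclear protein, and Cchcr1, and on the lower side H2-Q10, a class I histocompatibility gene. Which of them the peak is nearest to on mm9 was not analysed here.

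On both sides the Pou5f1 peaks were followed by stretches without any. Both were longer than the median distance of 85.8 kb between neighbours on chromosome 17, but their rank among these distances was not counted. The next listed peak below the group was 188 kb away, at chr17:35452499-35452639, and the next above the fourth peak was 178 kb away, at chr17:35834996-35835231. The count of 4 was therefore the same within 50 kb and within 100 kb of the centre. Beyond these stretches peaks were listed again. Within 500 kb of the centre there were 20, including the 4 of the window, where the density of chromosome 17 would give 4.76. How often stretches of this length hold as many peaks was not counted.

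The 3 peaks of the Nanog window were spread out. They were chr6:122643534-122643776 (243 bp), chr6:122657303-122657630 (328 bp) and chr6:122692480-122692815 (336 bp), at 16.3 and 2.53 kb below and 32.6 kb above the centre. Distances between neighbouring midpoints were 13.8 and 35.2 kb. The nearest other peak was 13.8 kb away for the lowest and the middle peak. For the upper peak it was 22.7 kb away, outside the window. In the Pou5f1 group described above these distances were at most 1.08 kb. Over the whole list the median distance to the nearest other peak was 46.9 kb. The share of all peaks with a neighbour as near was not counted. The spacing of the Nanog peaks was short beside the median of 165 kb between neighbours on chromosome 6. The middle peak was the one near the centre, again at lower coordinates.

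**Figure D3:**
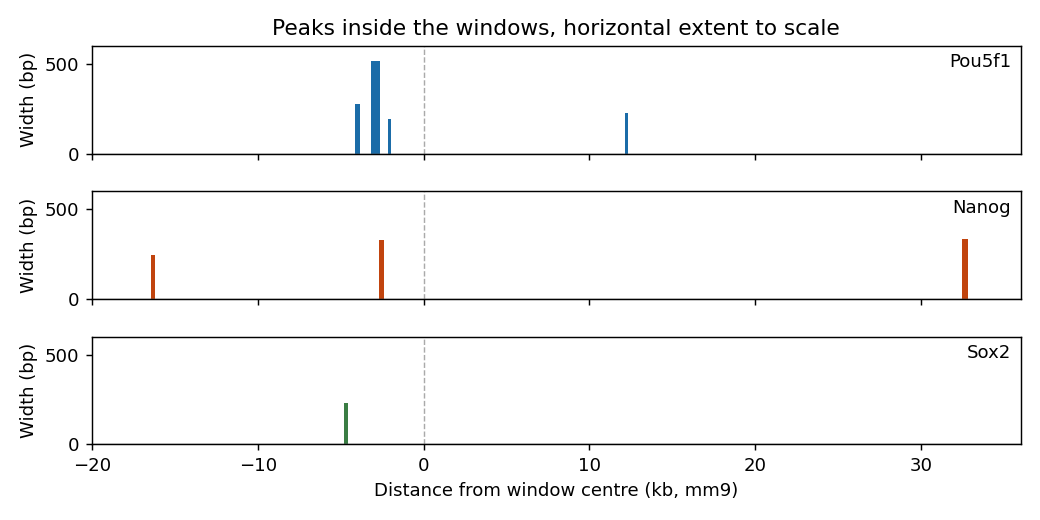
The 8 peaks inside the Pou5f1, Nanog and Sox2 windows, with the horizontal axis in kb from the window centre (dashed line, mm9), bars drawn to scale along it, and height giving the width in bp. Each locus has a peak from 2.06 to 4.67 kb below the centre, and Pou5f1 has 3 of them there.

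The Nanog window was part of a longer run of peaks. The next listed peak, chr6:122715245-122715497 (253 bp), had its midpoint 0.37 kb beyond the upper end of the window and was not counted. Within 100 kb of the centre there were 5 peaks, where the density of chromosome 6 would give 0.649, and within 250 kb there were 9, where it would give 1.62. How often stretches of these lengths hold as many peaks was not counted. The run ended at chr6:122776415-122776685, after which no peak was listed for 561 kb. In the RefSeq gene order the coding genes next to Nanog are Dppa3 (a maternal and germ cell factor also called Stella) and Gdf3 (a TGF-β family ligand) on the lower side. Beyond them on that side is Apobec1, a cytidine deaminase, and on the upper side are the glucose transporter gene Slc2a3 and Foxj2. Dppa3 and Gdf3 are themselves expressed in pluripotent cells. The peaks of the window were not assigned to any of these genes.

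Sox2 had 1 peak in its window, chr3:34545219-34545446 (228 bp), 4.67 kb below the centre. It stood alone, with 483 kb to the next peak below and 112 kb to the next above, where the median distance between neighbours on chromosome 3 was 179 kb. The next peaks above were chr3:34656965-34657127 (163 bp) and chr3:34676202-34676342 (141 bp, the smallest width in the list), 107 and 126 kb above the centre and so outside the window. As background, Sox2 is known for a distant control region downstream of the gene that drives it in mouse embryonic stem cells. Whether either of these peaks lies in it was not analysed here. Within 500 kb of the Sox2 centre 5 peaks were listed (interval 1.62 to 11.7), where the density of chromosome 3 would give 2.79.

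The Klf4 window lay in a stretch without peaks that was far longer than the window itself. The stretch ran from 55305843 to 55939422 on chromosome 4, and the peaks at its ends had midpoints 634 kb apart, 237 kb below and 397 kb above the centre. Of the 678 distances between neighbouring peaks on chromosome 4, 60 were longer, and the median was 86.6 kb. Distances of at least this length made up 49.2% of the span of the chromosome, so a position in such a stretch was not unusual. Within 1000 kb of the Klf4 centre 9 peaks were listed, close to the 8.92 that the density of the chromosome gives. Rad23b and Zfp462 are the next coding genes on the lower side in the RefSeq order, and Actl7b and Actl7a, which encode actin-like proteins, on the upper side.

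The distance from the window centre to the nearest peak was 2.06 kb for Pou5f1, 2.53 kb for Nanog, 4.67 kb for Sox2 and 237 kb for Klf4, by far the longest of the 4. Positions that lie as near to a peak midpoint made up 1.83% of chromosome 17 for the Pou5f1 distance, 1.55% of chromosome 6 for Nanog and 2.40% of chromosome 3 for Sox2. For the Klf4 distance they made up 69.3% of chromosome 4. So the Sox2 peak, although a common count for a window, was close to the middle of it. The 3 near peaks all lay at lower coordinates than the centre. The shares cover all positions between the first and last peak of a chromosome, with or without genes. Distances around other genes were not measured, so whether such closeness is particular to these loci was not tested.

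Peak density was highest nearest to the centre at Pou5f1, Nanog and Sox2, and lowest there at Klf4. At Pou5f1 it was 4 peaks per 100 kb within 50 kb of the centre, 2 within 500 kb and 0.80 within 2500 kb. For Nanog the same distances gave 3, 1 and 0.76 peaks per 100 kb, and for Sox2 1, 0.50 and 0.34. At Klf4 they were 0, 0.40 and 0.44. The fall was not even: Pou5f1 had 2 peaks per 100 kb within 100, 250 and 500 kb alike. The Sox2 value within 50 kb rests on 1 peak (interval 0.0253 to 5.57 peaks). Within 100 and 250 kb Sox2 had 0.50 and 0.60 peaks per 100 kb. Wider distances include the nearer ones, so these values are not independent. Among the distances tried, Nanog had its lowest density, 0.60 peaks per 100 kb, within 1000 kb.

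**Figure D4:**
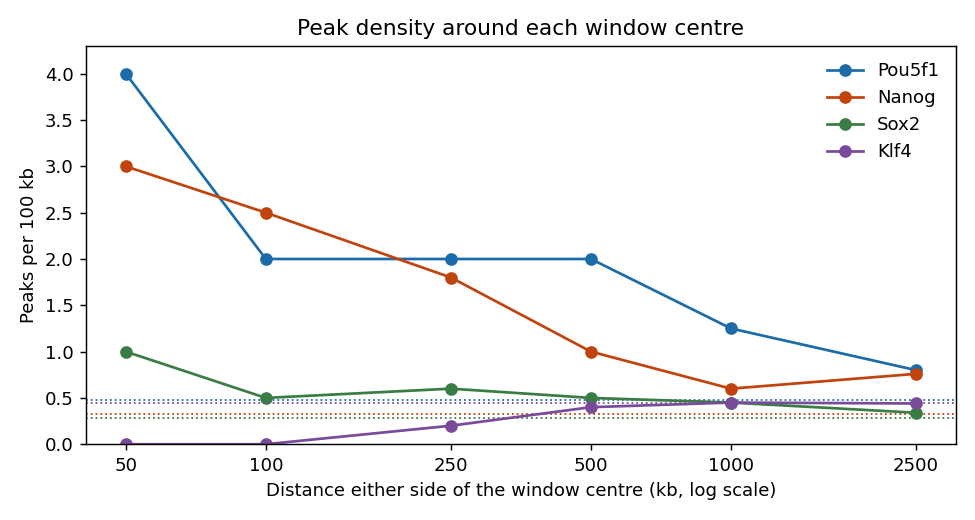
Peaks per 100 kb within 50 to 2500 kb either side of each window centre (log horizontal axis), with 1 line per gene; dotted lines give the density of each gene's chromosome in the same colour. Pou5f1 and Nanog lie at 4 and 3 for the shortest distance and at 0.80 and 0.76 for the longest, and Klf4 at 0 and 0.44.

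The peaks in the windows were mostly wider than the typical listed peak. Their widths ran from 194 to 516 bp with a median of 261 bp, and 7 of 8 were wider than the list's median of 195 bp, as were 49.6% of all peaks. The exception was the Pou5f1 peak nearest to the centre, at 194 bp. The 516 bp Pou5f1 peak was the widest of the 8, and 115 peaks of the list were wider. Next came the Nanog peaks of 336 and 328 bp, each at least as wide as 90.2% of the list. Those of 243 bp at Nanog, 228 bp at Sox2 and 225 bp at Pou5f1 were at least as wide as 72.7%, 67% and 65.9% of it. Median widths were 252 bp for the 4 Pou5f1 peaks and 328 bp for the 3 Nanog peaks, against 198 bp over chromosome 17 and 202 bp over chromosome 6. In a window of 2 times the length the Nanog median was 253 bp. The ranges of the Pou5f1 and Nanog widths overlap, and a listed width does not measure the strength of binding.

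**Figure D5:**
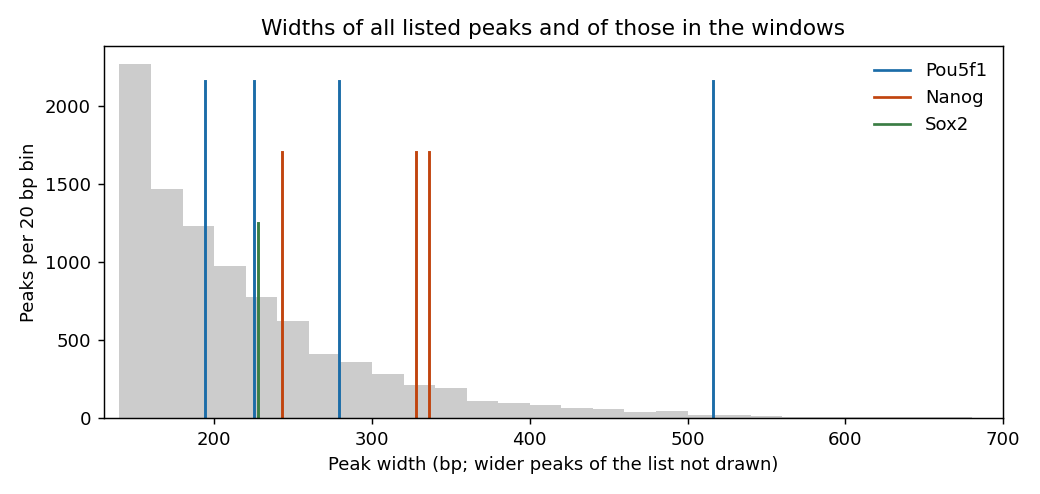
Number of listed peaks per 20 bp of width (grey bars, linear axes, widths up to 700 bp drawn) with a vertical line at the width of each of the 8 peaks in the windows, coloured by gene; line heights only tell the genes apart. Of the 8 lines 7 are right of the list median of 195 bp, and the Pou5f1 peak of 516 bp lies in the thin upper tail.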

How the data were processed

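The data were 1 peak list with 3 columns, chromosome, start and end, as the authors deposited it; its values are positions in bp, with starts counted from 0, and are printed here 1-based. The submitters' processing notes name mm9, Bowtie, Picard, MACS2 and HOMER, without versions. The threshold and the handling of the libraries in peak calling are not stated in the labels. Windows, midpoints, spacing, widths and same-size windows were computed with numpy 2.4.6, Poisson intervals (95%) with scipy 1.17.1. The counting of windows and distances was tested on simulated lists. Nothing was tested for significance, because no value per library exists. Every peak in the windows is named. Promoter letters and gene order came from RefSeq (GRCm38.p6). Coordinates of that build served only to choose among listed starts and to order genes, and none was set against the peaks. A count of motifs over a list of 20 other pluripotency genes was incomplete, since only 11 matched the promoter table. Of these 11, 54.5% held GGGCGG, 45.5% CCACCC, 63.6% GGGNGNGGG and 18.2% CTTTGA, given as description only. The members and lists were chosen with earlier results of these data known. Whether libraries came from separate cultures is not stated.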

Additional observations from a re-analysis of the deposited data

How the results depend on the processing

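No paired analysis was possible because no column of the peak list belongs to 1 library, which also kept replicates from being left out. The peak counts of the 4 windows stayed within their Poisson intervals under membership by any overlap, after merging across gaps under 500 bp, with only peaks above the median width, and in windows of 0.5 and 2 times the length. The intervals are wide (1.09 to 10.2 for Pou5f1) and belong to the original length, so staying inside them is a weak check. In windows of 2 times the length, 4, 5, 1 and 0 peaks were found for Pou5f1, Nanog, Sox2 and Klf4. With only peaks above the median width, the share of same-size windows on all chromosomes with as many peaks was 0.764% for Pou5f1 (then 3 peaks), 0.762% for Nanog, 15% for Sox2 and, for empty windows, 84.9% for Klf4. Merging across gaps under 500 bp gave 0.815% for Pou5f1 and 2.66% for Nanog. Since the Pou5f1 gaps of 507 and 684 bp lie just above that limit, merging across gaps under 1 kb was added after seeing the data. It left 2 Pou5f1 peaks and gave 7.26%, and it gave 2.45% for Nanog with its 3 peaks. Leaving out stretches of over 3 Mb without peaks gave 3.25% for Nanog, 28.4% for Sox2 and 71.5% for Klf4, and autosomes only 27.4% for Sox2 and 72.5% for Klf4. Windows shifted by 0.5 of their length gave 2.74% for Nanog. With the wider peaks only, the nearest peak to the Pou5f1 centre was 2.92 kb away. Median widths kept within the range of widths at the locus under the alternatives run. The Nanog median nevertheless fell from 328 bp to 253 bp in the window of 2 times the length. Measured between facing edges, the median spacing was 0.684 kb at Pou5f1, against 1.08 kb between midpoints and below the shortest of these, and 24.2 kb at Nanog against 24.5 kb. The unknown threshold limits what an empty window shows.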
